A study of Mus musculus with 49 samples.

Results

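The genes described here are 10 genes of serine synthesis, mitochondrial one-carbon metabolism and amino acid supply: Phgdh, Psat1, Psph, Shmt2, Mthfd2, Aldh1l2, Pycr1, Asns, Slc7a11 and Slc3a2. They were taken by their symbols from the table of raw counts, which lists 45252 genes. All 10 were in the table, all 10 passed the filter on low counts, and they were fitted together with the 18220 genes that passed it. Their lowest count in any mouse was 18, for Pycr1.

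Phgdh, Psat1 and Psph encode the enzymes that make serine from an intermediate of glycolysis. Shmt2, Mthfd2 and Aldh1l2 act in mitochondria, where the carbon of serine is passed to folate and used for glycine, formate and NADPH, while Pycr1 makes proline, Asns makes asparagine, and Slc7a11 and Slc3a2 together form the cystine and glutamate exchanger. Many of these genes are textbook targets of ATF4, a transcription factor of the integrated stress response, and in brain the serine synthesis enzymes are known mainly from astrocytes.

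RNA was taken from the neocortex of 49 mice of a mixed C57BL/6J x C3H/HeJ strain, with 1 library per mouse. The 32 bigenic mice, called rNLS8, carried a NEFH-tTA driver, active in neurons, and a tetO transgene for human TDP-43 lacking the signal that takes it into the nucleus. Their monogenic controls carried a single transgene, and which one is not given per mouse in the labels. In all mice the injections started at 8 weeks of age, doxycycline was taken from the food at 25.5 weeks to switch the transgene on, and tissue was taken 3 weeks later, at 28.5 weeks. The 17 ctrl-PBS mice (10 females, 7 males) were monogenic and received PBS. The 10 TDP-PBS mice (4 females, 6 males) were bigenic and received PBS, the 10 TDP-10+12 mice (6 females, 4 males) were bigenic and were immunized with TDP-43 peptides 10 and 12, and the 12 TDP-15 mice (5 females, 7 males) were bigenic and were immunized with peptide 15. Each dose held 40 µg of peptide conjugates in total, and the PBS groups were given PBS in place of them. Immunized monogenic mice were not among these samples, so an effect of immunization alone cannot be told apart from its effect in rNLS8 mice.

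Total counts were 17775738 to 21033608 per mouse. Levels are given as CPM, counts scaled to the effective library size (edgeR's TMM), where a floor of 3 counts corresponds to 0.139 to 0.165 CPM and covers counting error only. Tardbp, the mouse gene for TDP-43, averaged 146 ± 9.27 CPM among ctrl-PBS mice (SD, n = 17), against 118 ± 14.0 CPM among TDP-PBS mice (SD, n = 10), and a share of transgene reads in its count was not tested. Of all genes tested, 21.9% were higher and 21.6% lower in TDP-PBS than in ctrl-PBS. Of the cell type markers, TDP-PBS had 6 of 8 microglial genes higher and 5 of 8 neuronal genes lower than ctrl-PBS, and astrocyte genes were split, with 2 of 10 higher (Gfap most, by 1.64 on the log2 scale) and 2 lower. The summed neuronal markers were 5303 to 6552 CPM in TDP-PBS and 7211 to 8893 CPM in ctrl-PBS, and the summed microglial markers were 299.96 to 429.98 CPM and 244 to 286 CPM. The astrocyte sums overlapped, at 2426 to 3441 CPM in TDP-PBS and 2741 to 3491 CPM in ctrl-PBS, and so did the oligodendrocyte sums, at 3853 to 5483 CPM and 3405 to 6244 CPM. In TDP-PBS, 0 of 7 oligodendrocyte, 0 of 2 oligodendrocyte precursor, 0 of 6 endothelial and 0 of 5 blood genes were called by edgeR, with 0 of them at an unadjusted p under 0.05, 1 of 6 neocortical layer genes was higher and 1 lower, 2 of 4 meningeal genes were higher, and of the T cell list only Cd4 could be tested and was lower. Choroid plexus markers exceeded 100 CPM in 2 ctrl-PBS, 3 TDP-PBS, 3 TDP-10+12 and 3 TDP-15 mice, with a maximum of 1681 CPM. In TDP-10+12 against ctrl-PBS, all 4 choroid plexus genes were higher (median log2 fold change 1.80), as were 3 of 4 meningeal and 2 of 2 oligodendrocyte precursor genes, and in TDP-15 1 of 4 choroid plexus and 1 of 4 meningeal genes were higher. Microglial genes were higher for 6 of 8 and lower for 1, and neuronal genes were lower for 5 of 8, in each of these groups. Of 6 neocortical layer genes, 3 were lower in TDP-10+12, and 2 were lower and 1 higher in TDP-15. Of 10 astrocyte genes, 1 was higher and 2 lower in TDP-10+12, and 1 was higher and 3 lower in TDP-15. Of 6 endothelial genes, 0 were called in TDP-10+12 and 2 were lower in TDP-15. Of all genes tested, 20.8% were higher and 20.0% lower in TDP-10+12, and 23.6% and 23.2% in TDP-15. In tissue of this kind fewer cells of a type and less RNA per cell cannot be told apart.

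Most of the 10 genes were higher in rNLS8 mice, with Pycr1, Aldh1l2, Mthfd2 and Shmt2 the most raised and the first enzymes of serine synthesis, Phgdh and Psat1, within their control ranges in most mice. In TDP-PBS against ctrl-PBS, 7 of the 10 genes were higher and 0 were lower (edgeR's quasi-likelihood test, Benjamini-Hochberg adjusted p under 0.05), where 21.9% of all genes tested were higher and 21.6% were lower. In TDP-10+12, 6 were higher and 0 lower, beside 20.8% and 20.0% of all genes. In TDP-15, 7 were higher and 1, Slc7a11, was lower, beside 23.6% and 23.2%. The median log2 fold change of the 10 genes was 0.35, 0.26 and 0.30 in the 3 comparisons, and that of all genes lay within 0.0031 of 0. The 3 comparisons share the 17 ctrl-PBS mice. DESeq2 and limma-voom gave the same numbers of higher and lower genes among the 10 as edgeR in each of them.

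**Figure D1:**
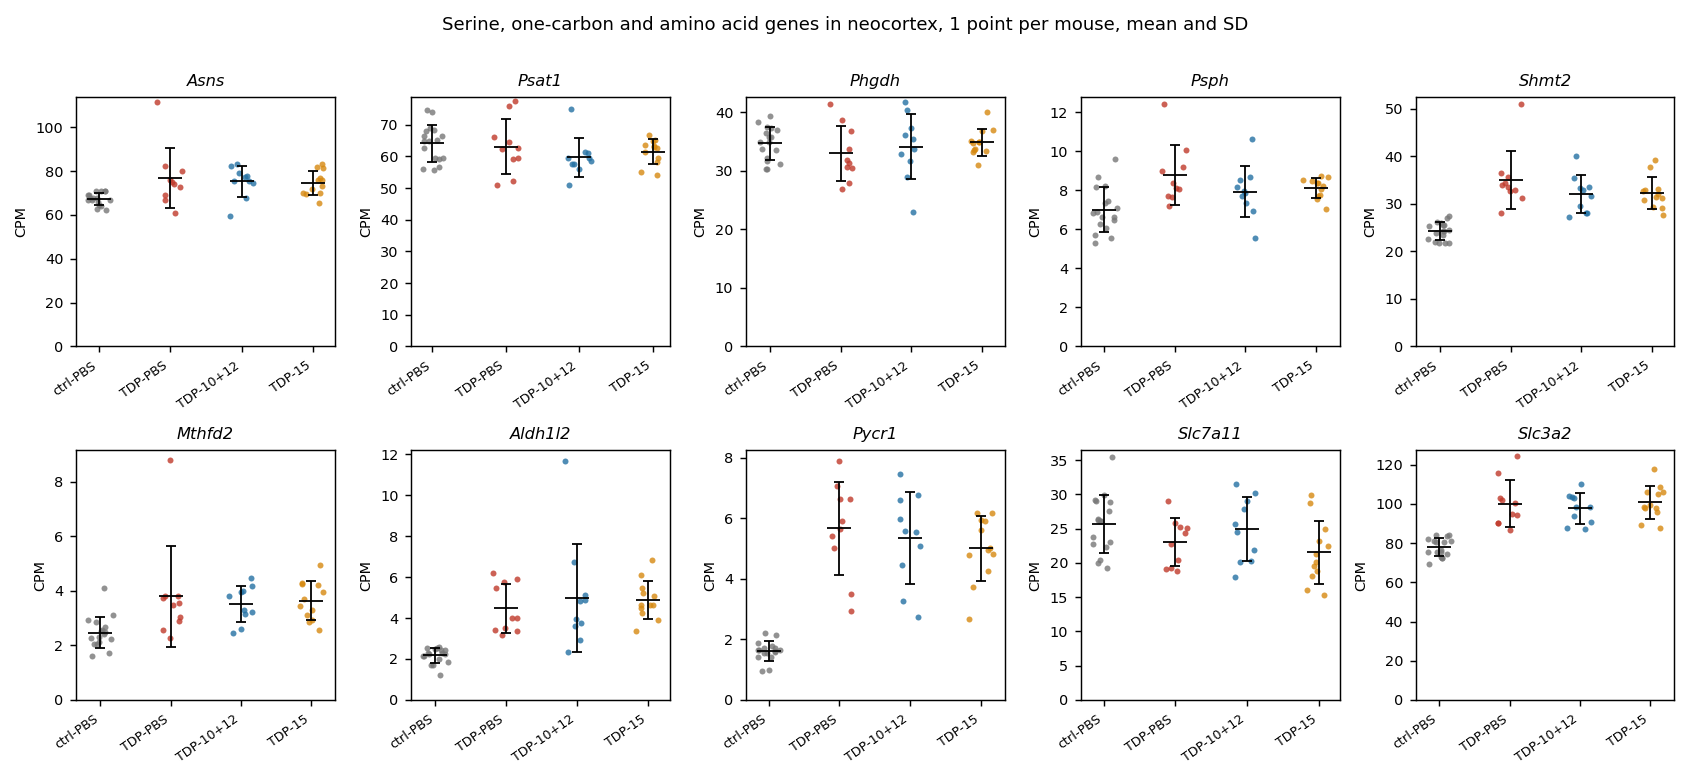
CPM (y axis, linear, from 0) of each of the 10 genes in the 4 groups (x axis), with 1 point per mouse and the mean with SD in black. Pycr1 and Slc3a2 lie above every ctrl-PBS mouse in all 32 rNLS8 mice, Shmt2 and Aldh1l2 in 31, and Psat1 and Phgdh overlap in all groups.

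Complete separation from the controls was more restricted. In TDP-PBS every mouse lay above every ctrl-PBS mouse for 4 of the 10 genes (Shmt2, Aldh1l2, Pycr1 and Slc3a2), which held for 2.31% of all genes tested. In TDP-10+12 this held for 2 of them (Pycr1 and Slc3a2), beside 2.23% of all genes, and in TDP-15 for the same 4 as in TDP-PBS, beside 2.45%.

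**Figure D2:**
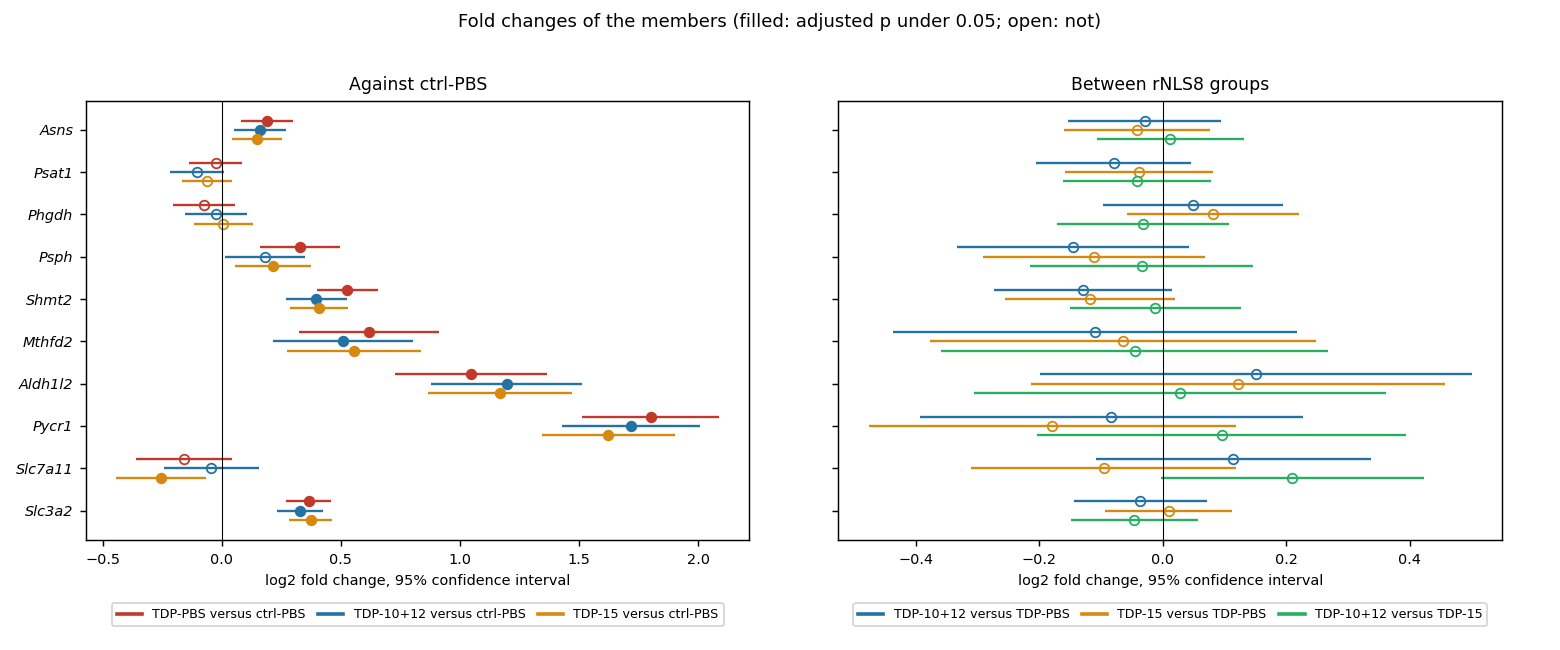
Log2 fold change (x axis) of each gene with its 95% confidence interval, against ctrl-PBS (left) and between the rNLS8 groups (right, on a narrower axis). Filled points have an adjusted p under 0.05. Pycr1, between 1.62 and 1.80, lies farthest from 0 on the left, and all points on the right are open.

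The promoters of 3 of these genes are shown because they hold the 8-letter motif TGATGNAA, a form of the composite element known to be bound by ATF4 with a C/EBP partner, searched on both strands. RefSeq's promoter table for GRCm38.p6 (250 bases before to 50 after the start) had an entry for 9 of the 10 genes, all but Aldh1l2. A gene can have more than 1 promoter there, and the 9 genes had 10, with Psat1 having more than 1. The motif stood in 3 of these 10 promoters, those of Pycr1, Asns and Slc7a11, and in 1304 of all 32851 promoters in the table (3.97%). The sequences run 5′ to 3′ on the minus strand, with the motif in capitals. Pycr1 is from chr11:120643699-120643998 with 1 match 103 to 96 bases before the start, Asns from chr6:7693160-7693459 with 1 match 23 to 16 bases before it, and Slc7a11 from chr3:50443564-50443863 with 2 matches, TGATGCAA 66 to 59 bases before it and its opposite-strand form TTGCATCA 47 to 40 bases before it. This Slc7a11 promoter lies inside the interval given for the gene (chr3:50364936-50499087), so its start is not the outermost one.
Pycr1: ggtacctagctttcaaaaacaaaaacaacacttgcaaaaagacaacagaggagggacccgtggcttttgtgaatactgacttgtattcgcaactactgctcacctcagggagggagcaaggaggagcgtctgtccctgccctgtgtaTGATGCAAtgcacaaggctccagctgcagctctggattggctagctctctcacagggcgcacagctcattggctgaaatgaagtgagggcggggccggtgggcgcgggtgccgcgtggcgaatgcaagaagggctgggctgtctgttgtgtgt
Asns: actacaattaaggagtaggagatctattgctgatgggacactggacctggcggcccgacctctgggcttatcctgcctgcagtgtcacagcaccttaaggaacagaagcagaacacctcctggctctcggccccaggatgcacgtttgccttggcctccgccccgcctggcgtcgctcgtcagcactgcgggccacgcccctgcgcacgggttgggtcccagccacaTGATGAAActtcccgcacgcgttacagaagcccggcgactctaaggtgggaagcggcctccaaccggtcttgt
Slc7a11: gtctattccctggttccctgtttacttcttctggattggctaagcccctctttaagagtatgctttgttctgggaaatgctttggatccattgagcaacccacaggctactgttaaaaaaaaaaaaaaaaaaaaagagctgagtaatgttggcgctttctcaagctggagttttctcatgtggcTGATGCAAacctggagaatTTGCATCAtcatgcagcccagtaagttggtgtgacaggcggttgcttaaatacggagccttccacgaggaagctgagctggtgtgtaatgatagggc
A match is a description of letters and not a measured site. The log2 fold changes of the 3 genes in TDP-PBS against ctrl-PBS were 1.80 for Pycr1, 0.19 for Asns and −0.16 for Slc7a11, the last of which did not pass the test.

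Of the serine synthesis enzymes, Psph was called in TDP-PBS and TDP-15, and Phgdh and Psat1 were called in none of the 3 comparisons with ctrl-PBS. Phgdh, the dehydrogenase that commits the pathway (chr3:98313171-98339969, minus strand, RefSeq position on GRCm38.p6), had a lowest, median and highest level of 30.3, 34.95 and 39.5 CPM in ctrl-PBS. The values were 26.9, 31.6 and 41.5 CPM in TDP-PBS, 22.9, 34.6 and 41.8 CPM in TDP-10+12 and 31.0, 34.9 and 40.2 CPM in TDP-15. The 4 ranges overlapped, and 4 rNLS8 mice lay above and 4 below every control. Its log2 fold changes were −0.07 (95% interval −0.20 to 0.06), −0.02 (−0.15 to 0.11) and 0.01 (−0.12 to 0.13), none past the test. Psat1, the aminotransferase of the second step (chr19:15905123-15925059, minus strand), ranged from 55.7 to 74.7 CPM in ctrl-PBS and from 50.8 to 77.5 CPM in the rNLS8 mice. Its log2 fold changes were −0.02 (−0.14 to 0.09) in TDP-PBS, −0.10 (−0.22 to 0.01) in TDP-10+12 and −0.06 (−0.17 to 0.04) in TDP-15. In TDP-10+12, Psat1 passed the test when mouse 51, the highest of its group at 75.1 CPM, was left out (−0.13, edgeR adjusted p = 0.0429).

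Psph, the phosphatase that releases serine in the last step (chr5:129765558-129787443, minus strand), was higher in TDP-PBS and TDP-15. Its lowest, median and highest levels were 5.28, 6.86 and 9.59 CPM in ctrl-PBS and 7.18, 8.24 and 12.5 CPM in TDP-PBS. They were 5.58, 7.92 and 10.6 CPM in TDP-10+12 and 7.02, 8.31 and 8.72 CPM in TDP-15. The medians of the rNLS8 groups lay above the control median, but the ranges overlapped, and 3 of 32 rNLS8 mice exceeded every control. The log2 fold change was 0.33 (SE 0.084, edgeR adjusted p = 0.00107) in TDP-PBS and 0.22 (SE 0.080, adjusted p = 0.0214) in TDP-15, and 0.18 (SE 0.084, adjusted p = 0.0758) in TDP-10+12, which did not pass. The TDP-10+12 value passed when 1 of 6 mice was left out, ctrl-PBS mice 38, 84 or 99, TDP-PBS mouse 91, or TDP-10+12 mice 266 or 337 (adjusted p from 0.0153 to 0.0454). Without the 11 mice with over 100 CPM of choroid plexus markers it was 0.06 (adjusted p = 0.664), and the TDP-15 value no longer passed, at 0.18 (adjusted p = 0.0965). Psph shares 452 exonic bases with Cct6a on the opposite strand, a gene that was lower in TDP-PBS (−0.17, adjusted p = 0.000549), and whether the counting used strand is not given in the sources used here.

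The 3 mitochondrial one-carbon enzymes were all higher. Shmt2, which splits serine into glycine and a folate-bound carbon (chr10:127517123-127522444, minus strand), had lowest, median and highest levels of 21.6, 24.3 and 27.4 CPM in ctrl-PBS. They were 27.96, 33.6 and 51.0 CPM in TDP-PBS, 27.1, 32.3 and 40.1 CPM in TDP-10+12 and 27.7, 31.7 and 39.2 CPM in TDP-15. Of 32 rNLS8 mice 31 lay above every control, and the exception was 1 TDP-10+12 mouse. Its log2 fold changes were 0.53 (SE 0.064, edgeR adjusted p = 1.36e-09), 0.40 (SE 0.064, adjusted p = 1.16e-06) and 0.41 (SE 0.061, adjusted p = 1.55e-07) in TDP-PBS, TDP-10+12 and TDP-15.

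Mthfd2, the dehydrogenase and cyclohydrolase that oxidizes the folate-bound carbon (chr6:83305704-83326011, minus strand), was among the weakly expressed genes. Its lowest, median and highest levels were 1.599, 2.42 and 4.09 CPM in ctrl-PBS, 2.26, 3.52 and 8.80 CPM in TDP-PBS, 2.46, 3.56 and 4.45 CPM in TDP-10+12 and 2.56, 3.58 and 4.93 CPM in TDP-15. The groups overlapped, with 7 of 32 rNLS8 mice above every control. The log2 fold changes were 0.62 (SE 0.15, edgeR adjusted p = 0.000471), 0.51 (SE 0.15, adjusted p = 0.00412) and 0.55 (SE 0.14, adjusted p = 0.000844). Without TDP-PBS mouse 91, which held the 8.80 CPM, the TDP-PBS value was 0.40 (adjusted p = 0.00619).

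Aldh1l2, which oxidizes the folate-bound carbon to CO2 and yields NADPH (chr10:83487447-83534146, minus strand), was higher in all 3 rNLS8 groups. Its lowest, median and highest levels were 1.20, 2.27 and 2.59 CPM in ctrl-PBS, 3.19, 4.02 and 6.21 CPM in TDP-PBS, 2.36, 4.40 and 11.7 CPM in TDP-10+12 and 3.37, 4.64 and 6.85 CPM in TDP-15. Only TDP-10+12 mouse 242, at 2.36 CPM, fell within the control range. The log2 fold changes were 1.05 (SE 0.16, edgeR adjusted p = 3.10e-07), 1.20 (SE 0.16, adjusted p = 1.37e-08) and 1.17 (SE 0.15, adjusted p = 6.08e-09). TDP-10+12 mouse 301 had both the highest Aldh1l2 level (11.7 CPM) and the lowest Phgdh level (22.9 CPM) of all mice. Aldh1l2 shares 1056 exonic bases with D10Wsu102e on the opposite strand, which averaged 16.4 ± 1.71 CPM among ctrl-PBS mice (SD, n = 17) and 24.7 ± 1.91 CPM among TDP-PBS mice (SD, n = 10) and was also higher, by 0.59 on the log2 scale (adjusted p = 2.65e-14). How far its reads entered the Aldh1l2 count was not tested.

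Pycr1, which completes proline synthesis in mitochondria (chr11:120638998-120643748, minus strand), had the largest fold change of the 10 genes. Its lowest, median and highest levels were 0.948, 1.66 and 2.23 CPM in ctrl-PBS, 2.93, 5.78 and 7.91 CPM in TDP-PBS, 2.74, 5.56 and 7.46 CPM in TDP-10+12 and 2.69, 4.99 and 6.19 CPM in TDP-15. All 32 rNLS8 mice lay above all 17 controls. The log2 fold changes were 1.80 (SE 0.14, edgeR adjusted p = 4.94e-15), 1.72 (SE 0.14, adjusted p = 3.08e-14) and 1.62 (SE 0.14, adjusted p = 3.53e-14), which correspond to 3.48-fold, 3.29-fold and 3.08-fold.

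Asns, the asparagine synthetase that is used in many studies as a readout of amino acid shortage (chr6:7675165-7693209, minus strand), moved little by comparison. Its lowest, median and highest levels were 62.4, 67.5 and 71.1 CPM in ctrl-PBS, 60.9, 74.5 and 111 CPM in TDP-PBS, 59.5, 76.6 and 83.5 CPM in TDP-10+12 and 65.4, 74.6 and 83.2 CPM in TDP-15. The highest TDP-PBS value was that of mouse 91, and the next was 82.3 CPM. Of 32 rNLS8 mice 23 exceeded every control and 2 lay below every control. The log2 fold changes were 0.19 (SE 0.055, edgeR adjusted p = 0.00367), 0.16 (SE 0.055, adjusted p = 0.0149) and 0.15 (SE 0.052, adjusted p = 0.0158).

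Of the cystine and glutamate exchanger, the heavy chain was higher in every rNLS8 mouse and the light chain was not. Slc3a2, the heavy chain that also pairs with other amino acid transporters (chr19:8706882-8723369, minus strand), had lowest, median and highest levels of 69.5, 76.4 and 84.2 CPM in ctrl-PBS. They were 86.5, 97.6 and 125 CPM in TDP-PBS, 87.1, 98.4 and 109.95 CPM in TDP-10+12 and 87.6, 98.9 and 118 CPM in TDP-15. All 32 rNLS8 mice lay above all controls although the fold was small, at 1.29, 1.26 and 1.296 times. The log2 fold changes were 0.36 (SE 0.048, edgeR adjusted p = 8.68e-09), 0.33 (SE 0.048, adjusted p = 1.21e-07) and 0.37 (SE 0.045, adjusted p = 9.35e-10).

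Slc7a11, the light chain that carries cystine (chr3:50364936-50499087, minus strand), had lowest, median and highest levels of 19.3, 26.1 and 35.4 CPM in ctrl-PBS. They were 18.9, 23.6 and 29.1 CPM in TDP-PBS, 17.98, 25.1 and 31.6 CPM in TDP-10+12 and 15.4, 20.7 and 29.96 CPM in TDP-15. The ranges overlapped, with 7 of 32 rNLS8 mice below every control and 0 above. The log2 fold change was −0.25 (SE 0.094, edgeR adjusted p = 0.0233) in TDP-15, and −0.16 (adjusted p = 0.202) and −0.04 (adjusted p = 0.763) in TDP-PBS and TDP-10+12. The TDP-15 call was lost without TDP-15 mouse 126 (−0.22, adjusted p = 0.0534) or mouse 284 (−0.22, adjusted p = 0.0555), and without the 11 mice with over 100 CPM of choroid plexus markers (−0.23, adjusted p = 0.0531).

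Between the rNLS8 groups 0 of the 10 genes were called. In TDP-10+12 against TDP-PBS, TDP-15 against TDP-PBS and TDP-10+12 against TDP-15, 0% of all genes tested were called by edgeR, and DESeq2 and limma-voom also called 0 genes. At an unadjusted p under 0.05 there were 953, 552 and 1244 genes, of which 0 were among the 10. The log2 fold change against TDP-PBS was −0.08 (95% interval −0.39 to 0.23) in TDP-10+12 and −0.18 (−0.48 to 0.12) in TDP-15 for Pycr1, and −0.13 (−0.27 to 0.02) and −0.12 (−0.26 to 0.02) for Shmt2. Single mice moved these values: without TDP-PBS mouse 91 those of Shmt2 were −0.05 and −0.04, and that of Pycr1 in TDP-10+12 lay between −0.16 and −0.01 as each mouse was left out, nearest to 0 without TDP-10+12 mouse 47. For Aldh1l2 the log2 fold change against TDP-PBS was 0.15 (−0.20 to 0.50) in TDP-10+12 and 0.12 (−0.21 to 0.46) in TDP-15, and the first turned to −0.08 without TDP-10+12 mouse 301. The smallest unadjusted p of the 10 genes in the 3 comparisons was that of Slc7a11 in TDP-10+12 against TDP-15, with a log2 difference of 0.21 (−0.00 to 0.42) and an adjusted p of 0.750 from edgeR. These intervals are narrower for Slc3a2, at −0.14 to 0.07 and −0.09 to 0.11, than for the weakly expressed genes.

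Both sexes were present in every group. In the 27 PBS-treated mice, the genotype by sex interaction was called for 0 of the 10 genes and for 0% of all 18589 genes tested (edgeR), and DESeq2 and limma-voom also called 0 genes. Asns alone among the 10 genes had an unadjusted p under 0.05 (p = 0.0136, adjusted p = 0.747), with a log2 fold change higher by 0.29 (SE 0.11) in males. Without TDP-PBS mouse 91 this difference was 0.18 (edgeR adjusted p = 0.949).

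Ratios within each library were compared for 5 pairs of related genes, which leave out Asns, Psat1 and Pycr1, without dependence on library scaling. The pairs were chosen after the values had been seen, so the tests are no independent evidence of the changes given above, and each difference was tested with a two-sided permutation test (100000 resamples, adjusted over 18 tests). The log2 ratio of Psph to Phgdh rose from −2.32 ± 0.21 (SD, n = 17) in ctrl-PBS to −1.91 ± 0.18 (SD, n = 10) in TDP-PBS, a difference of 0.41 (permutation test, adjusted p = 6e-05). In TDP-10+12 and TDP-15 the difference was 0.22 in both (adjusted p = 0.0296 and 0.00247).

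The paralogue pairs gave different pictures. Shmt1, the cytosolic form of Shmt2, averaged 1.43 ± 0.66 CPM among ctrl-PBS mice (SD, n = 17) and 3.88 ± 0.65 CPM among TDP-PBS mice (SD, n = 10), a log2 fold change of 1.44 (SE 0.17, edgeR adjusted p = 6.50e-10). The log2 ratio of Shmt2 to Shmt1 therefore fell, by 1.01 in TDP-PBS, 0.73 in TDP-10+12 and 0.92 in TDP-15 (permutation test, adjusted p = 0.000295, 0.00753 and 0.000234). By contrast Aldh1l2 rose against its cytosolic form Aldh1l1, an astrocyte marker, by 1.06, 1.19 and 1.28 (permutation test, adjusted p = 3e-05 each), and 9 of 10, 9 of 10 and 12 of 12 mice lay above every control. The unadjusted p of these 3 differences, 1e-05, is the smallest these permutations can give. For Mthfd2 against Mthfd2l, its mitochondrial paralogue, the differences of 0.16, 0.27 and 0.21 did not pass (adjusted p = 0.375, 0.0869 and 0.165), and without TDP-PBS mouse 91 the first was 0.02.

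The log2 ratio of Slc7a11 to Slc3a2 fell by 0.51 in TDP-PBS, 0.38 in TDP-10+12 and 0.64 in TDP-15 (permutation test, adjusted p = 4.5e-05, 0.00504 and 4.5e-05). For this ratio 5 of 10, 4 of 10 and 9 of 12 mice lay below every control.

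**Figure D3:**
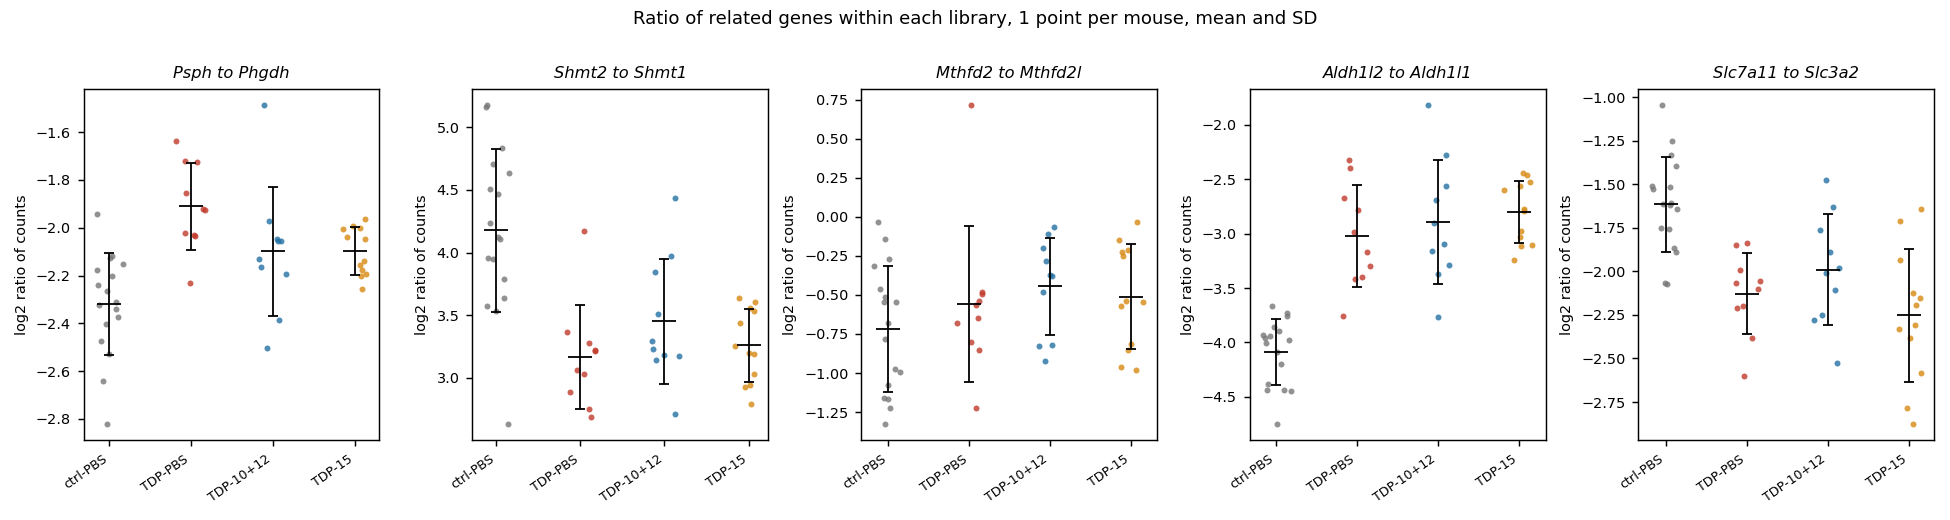
Log2 ratio of the counts (y axis, each panel with its own range) of 5 gene pairs in each mouse, by group (x axis), with mean and SD in black. The ratio of Aldh1l2 to Aldh1l1 lies above every ctrl-PBS mouse in all 12 TDP-15 mice, and that of Shmt2 to Shmt1 is lower on average in the 3 rNLS8 groups but overlaps.

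Levels between genes were compared per kilobase of annotated exon sequence. In ctrl-PBS the order of the means was Asns (24.6 CPM per kilobase), Slc3a2 (22.05), Psat1 (15.1), Phgdh (14.0), Shmt2 (7.80), Slc7a11 (1.84), Psph (1.62), Mthfd2 (0.709), Pycr1 (0.412) and Aldh1l2 (0.290). The ranges over mice of the neighbours Asns and Slc3a2, Psat1 and Phgdh, Slc7a11 and Psph, Mthfd2 and Pycr1, and Pycr1 and Aldh1l2 overlapped, and those of the other neighbours did not, although Asns lay above Slc3a2 within each of the 17 mice, as did Mthfd2 above Pycr1. In all 3 rNLS8 groups Slc3a2 stood first, Psph stood before Slc7a11, and Pycr1 stood before Mthfd2 by their means, with overlapping ranges in each case. Within mice, Slc3a2 lay above Asns in 5 of 10 TDP-PBS, 5 of 10 TDP-10+12 and 8 of 12 TDP-15 mice, and Pycr1 above Mthfd2 in 8 of 10, 8 of 10 and 10 of 12. Psph lay above Slc7a11 in 9 of 10, 4 of 10 and 9 of 12, so that in TDP-10+12 most mice had the opposite order to the means. The genes with the largest fold changes, Pycr1 and Aldh1l2, were thus the lowest in ctrl-PBS, and Aldh1l2 was still the lowest per kilobase in every rNLS8 group. These orders depend on the summed length of all annotated exons. By CPM alone Mthfd2 had the lowest mean in TDP-PBS, TDP-10+12 and TDP-15 (3.79, 3.52 and 3.63 CPM, beside 4.49, 4.99 and 4.89 CPM for Aldh1l2). Slc7a11 then stood above Psph, at 23.0 and 8.79 CPM in TDP-PBS.

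Within groups the genes varied together to unequal degrees. After the group means were removed, Pearson's r of log2 CPM over the 49 mice was positive for 35 of the 45 pairs, with a median of 0.21. These values share libraries and depth and are given as a description. The highest was 0.60 for Shmt2 and Slc3a2, followed by 0.47 for Psat1 and Phgdh, and the lowest was −0.31 for Phgdh and Aldh1l2. Slc7a11 stood apart from the others, with r from −0.27 with Psat1 to 0.17 with Asns. With Atf4, r was 0.70 for Shmt2, 0.67 for Pycr1 and 0.63 for Slc3a2, and −0.08 for Phgdh and −0.19 for Slc7a11. The other genes lay between, at 0.46 for Mthfd2 and Asns, 0.42 for Aldh1l2, 0.23 for Psph and 0.20 for Psat1.

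**Figure D4:**
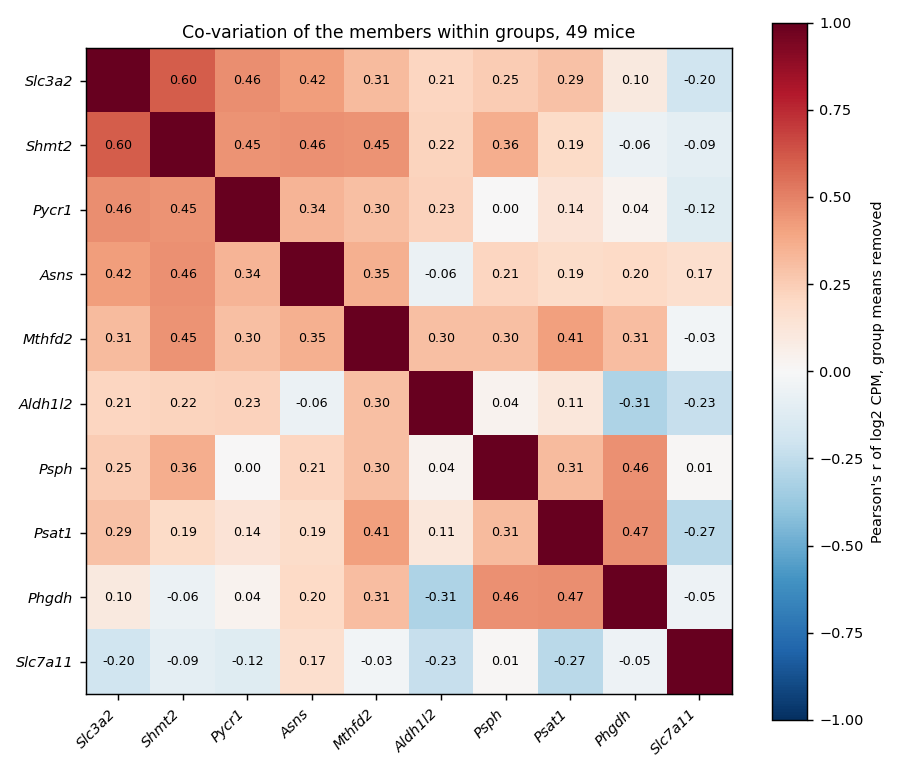
Pearson's r (colour scale, −1 to 1, value in each cell) between the log2 CPM of each pair of the 10 genes over 49 mice, after removal of the group means. Slc3a2, Shmt2, Pycr1 and Asns form a block of positive values from 0.34 to 0.60, and the row of Slc7a11 is near or below 0 except with Asns.

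Among all other genes tested, Atf4 was the one most like Shmt2 (r = 0.70) and Pycr1 (r = 0.67) in this measure over 49 mice, with Taf6 and Atf5 next. For Slc3a2 it was Sars (r = 0.77) and then Herpud1, for Asns Gars (r = 0.73) and then Eif3c, and for Aldh1l2 Serpina3n (r = 0.71), an acute phase gene of reactive astrocytes, and then Stat3. For Psat1 it was Ptma (r = 0.68) and then Mobp, a myelin gene, for Phgdh Plaat3 (r = 0.70) and then Selenbp1, and for Slc7a11 Ptprz1 (r = 0.71) and then Gabrb1. Psph and Mthfd2 had no gene above 0.60, with Ebp (r = 0.597) and Mrpl42 nearest to Psph and Srarp (r = 0.54) and Gng5 nearest to Mthfd2. Against summed markers, r was 0.55 for Aldh1l2 and 0.44 for Slc3a2 with microglia, 0.57 for Psat1, 0.40 for Phgdh and −0.47 for Slc7a11 with oligodendrocytes, and between −0.14 and 0.26 for all 10 genes with neurons. With astrocytes it lay between 0.06 and 0.34 for all 10 genes, with Phgdh at 0.06, Psph at 0.29 and Psat1 at 0.31. With choroid plexus it lay between −0.20 and 0.33, with Psat1 at 0.32 and Phgdh at 0.33. How far these cell types carry the differences between groups was not tested.

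Other genes of the same pathways were counted in lists. In TDP-PBS against ctrl-PBS, 21.9% of all genes tested were higher and 21.6% lower, and the counts of each list stand beside these shares. The serine and glycine list had 3 of 10 tested genes higher and 3 lower, with a median log2 fold change of −0.03. Its called genes with the largest changes were Shmt1 (1.44), the neutral amino acid exchanger Slc1a4 (0.66), serine racemase Srr (−0.32) and the glutamine transporter Slc38a2 (0.30). Slc1a4, which moves serine across membranes, averaged 48.6 ± 4.24 CPM among ctrl-PBS mice (SD, n = 17) and 76.8 ± 9.58 CPM among TDP-PBS mice (SD, n = 10), and all 32 rNLS8 mice lay above the controls. Within TDP-PBS, TDP-10+12 and TDP-15 taken singly, every mouse lay above every control for 2.31%, 2.23% and 2.45% of all genes.

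In the folate cycle list 6 of 14 genes were higher and 0 lower (median 0.12), led by the reduced folate carrier Slc19a1 (0.48), thymidylate synthase Tyms (0.42), Mthfd2l (0.38) and methionine synthase Mtr (0.31). In the methionine and transsulfuration list 2 of 8 were higher and 2 lower (median 0.04), led by Mat2b, the regulatory subunit of methionine adenosyltransferase (−0.87), and the AHCY-like genes Ahcyl1 (−0.32) and Ahcyl2 (0.29). Mat2b was called lower in TDP-PBS, as were 21.6% of all genes tested. In the proline and ornithine list 0 of 6 were called in TDP-PBS by edgeR (median 0.06), with 1, Pycrl, at an unadjusted p under 0.05 and a log2 fold change of 0.14.

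The asparagine, aspartate and glutamate list had 2 of 9 higher and 5 lower (median −0.16). The asparaginase gene Aspg rose by 0.99 on the log2 scale, and the aspartate aminotransferases Got1 and Got2 had log2 fold changes of −0.49 and 0.21. Of the amino acid transporters 10 of 17 were higher and 3 lower (median 0.18), with Slc7a7 at 0.62, Slc38a5 at −0.52, Slc38a7 at 0.49 and Slc1a5 at 0.46. Of the glutathione genes 5 of 9 were higher and 0 lower (median 0.15), led by Chac1, which degrades glutathione (1.001), Ggt7 (0.41) and Gss (0.40).

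The list of ATF4 regulators and other targets, called the ATF4 list here, had 14 of 21 tested genes higher and 1 lower (median 0.40). Atf3 was at 2.94, the kinase gene Eif2ak2 at 1.95, Stc2 at 1.46 and Ddit4l, the 1 lower gene, at −1.36. Because the list mixes regulators with targets, its counts do not stand for targets of ATF4 alone. Atf4 itself averaged 69.2 ± 3.89 CPM among ctrl-PBS mice (SD, n = 17) and 118 ± 18.4 CPM among TDP-PBS mice (SD, n = 10), a log2 fold change of 0.78 (SE 0.063, edgeR adjusted p = 9.88e-15). It lay above every control in all 32 rNLS8 mice. In TDP-PBS, TDP-10+12 and TDP-15 taken singly, this held for 2.31%, 2.23% and 2.45% of all genes. Of the cytosolic aminoacyl-tRNA synthetases 14 of 20 were higher and 2 lower (median 0.24), led by Lars (0.49), Rars (0.45), Vars (0.43) and Sars (0.40). In the TDP-10+12 and TDP-15 groups the ATF4 list had 14 genes higher in each and 2 and 1 lower, and the synthetases had 13 and 15 higher and 2 lower in each, beside 20.8% and 23.6% of all genes higher and 20.0% and 23.2% lower. Over the 9 lists the median log2 fold change against ctrl-PBS lay between −0.18 and 0.33 in TDP-10+12 and between −0.25 and 0.35 in TDP-15.

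**Figure D5:**
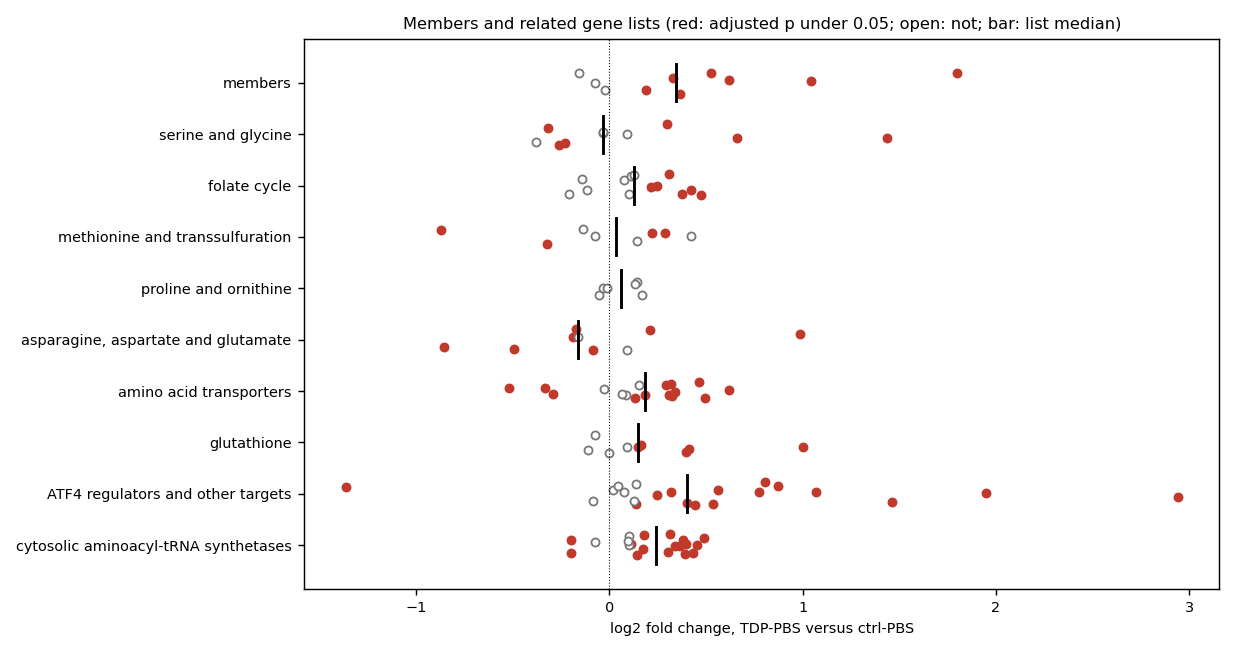
Log2 fold change in TDP-PBS against ctrl-PBS (x axis) for the 10 genes (labelled members) and 9 related gene lists (y axis), with 1 point per gene, red where the adjusted p is under 0.05, and a bar at each list's median. The ATF4 list has the highest list median, 0.40, beside 0.35 for the 10 genes, and the asparagine, aspartate and glutamate list the lowest, −0.16.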

How the data were processed

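Neocortical RNA (about 30 mg of tissue per mouse) was read by the authors in pairs of 100 bp and aligned to mm10 (GRCm38.p6), and the deposited raw counts per gene and mouse were used without change. The submitters' processing notes name HISAT, HISAT2, Bowtie, Bowtie2 and RSEM. Their roles and versions, the annotation and the strand setting are not given in the sources used here. RSEM estimates counts, so the whole numbers may be rounded.

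Groups came from the labels, and every mouse was a separate animal. Low genes were dropped with filterByExpr (minimum count 10, minimum total 15, by group). TMM factors were used, and all remaining genes were fitted over all 49 mice without covariates with edgeR 4.0.16 under R 4.3.3 (glmQLFit and glmQLFTest, two-sided, adjusted over 18220 genes). The 6 comparisons set each rNLS8 group against ctrl-PBS and the rNLS8 groups against each other. Totals of 17775738 to 21033608 counts set the precision. Within groups no libraries were copies (smallest chi-squared per degree of freedom 7.24). Alternatives were DESeq2 size factors, upper-quartile factors, no filter, a minimum of 10 counts per mouse, a sex term, only the groups compared, limma-voom (limma 3.58.1), DESeq2 1.42.0 and leaving out each mouse. The removal of mice with choroid plexus markers over 100 CPM and the settings for ratios (pseudocount 0.5 or 1 counts, without TDP-PBS mouse 91), and leaving out each mouse in the sex interaction, were added after seeing the data. The fit was tested on simulated data.

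The 10 genes and the lists of pathway and cell type genes were chosen with earlier results of these data known. Named are the 10 genes, up to 4 called genes per list with the largest absolute log2 fold change in TDP-PBS, 2 nearest genes per member (Pearson's r of log2 CPM with prior count 2) and Tardbp. Aldh1l1, Cct6a, D10Wsu102e, Cd4, Gfap and Pycrl, and Shmt1 and Mthfd2l in the ratios, were named after their values were seen. Some items that these rules name, among them 1 of the ratios adjusted together, are not reported here. Exon lengths, exon overlaps and strands are from GENCODE M21, and gene positions are from RefSeq for GRCm38.p6.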

Additional observations from a re-analysis of the deposited data

Results flagged for a closer look

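In groups of 10 mice, 5 values stood far from the others of their group by Dixon's 95% criterion, among 20 groups of values checked, where chance gives about 1 in 20. Of these, 3 were in TDP-PBS mouse 91, with 111 CPM of Asns (next highest 82.3 CPM), 51.0 CPM of Shmt2 (next 36.4 CPM) and 8.80 CPM of Mthfd2 (next 3.82 CPM). The same mouse was the highest of its group for Psph, Pycr1, Slc7a11 and Slc3a2. Its summed meningeal markers, 87.6 CPM, were the highest of TDP-PBS, and their part in these values was not tested. Its summed astrocyte markers, 3441 CPM, were also the highest of TDP-PBS, close to the 3440.3 CPM of mouse 82, and their part was not tested. Without mouse 91 Asns, Shmt2 and Mthfd2 were still called in TDP-PBS against ctrl-PBS, with log2 fold changes of 0.13, 0.46 and 0.40.

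Psat1 in TDP-10+12 mouse 51 was 75.1 CPM (next 61.2 CPM). This mouse also had the highest choroid plexus sum of all mice, 1681 CPM, and the highest oligodendrocyte sum of its group, 5899 CPM, and their part in the value was not tested. Aldh1l2 in TDP-10+12 mouse 301 was 11.7 CPM (next 6.74 CPM), and this mouse had the highest astrocyte sum (3714 CPM) and microglia sum (417 CPM) of its group. Without it the log2 fold change of Aldh1l2 in TDP-10+12 against ctrl-PBS was 0.98.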

How the results depend on the processing

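The number of the 10 genes called was 7 in TDP-PBS, 6 to 7 in TDP-10+12 and 6 to 8 in TDP-15 against ctrl-PBS over 9 other settings, and 7, 6 to 7 and 7 to 8 when each of the 49 mice was left out in turn. Between the rNLS8 groups it was 0 throughout. Shmt2, Mthfd2, Aldh1l2, Pycr1, Slc3a2 and Asns kept their call and direction against ctrl-PBS in all of these fits. Over the 9 settings the log2 fold change of Pycr1 in TDP-PBS was 1.76 to 1.85 and that of Asns 0.17 to 0.25. The calls that changed were those of Psph and Psat1 in TDP-10+12 and of Psph and Slc7a11 in TDP-15, and the cause was not tested. Without the 11 mice with high choroid plexus markers Psat1 in TDP-10+12 was called, at −0.16 (edgeR adjusted p = 0.0275). Against ctrl-PBS the sign changed in at least 1 fit for Phgdh in TDP-10+12 and TDP-15, Psat1 in TDP-PBS and Slc7a11 in TDP-10+12, none of them called. Between the rNLS8 groups, where no gene was called, signs changed in at least 1 fit for all but Psat1, Pycr1 and Slc7a11. The sex interaction was called for 0 of the 10 genes as each of the 27 PBS-treated mice was left out. The lowest counts per mouse, 18 for Pycr1, 24 for Aldh1l2 and 32 for Mthfd2, limit the precision of these 3 genes. No paired analysis was possible because every mouse is a separate animal with its own number.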
